A study of Mus musculus with 18 samples.

Results

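The genes of the NF-kB subunits and the IkB inhibitors were followed across 6 groups of mouse splenic CD4 T cells. The members were set by name: the 5 Rel-homology subunit genes Nfkb1, Nfkb2, Rel, Rela and Relb, and the 5 IkB genes Nfkbia, Nfkbib, Nfkbie, Nfkbid and Nfkbiz. Every probe set annotated to 1 of these symbols alone was taken, which gave 18 of the 45101 probe sets on the array and 9 of the 18193 genes read. Nfkb1 had 0 probe sets in the annotation used here and was not analysed here. Nfkbia had 5 probe sets, Nfkbiz 3, Nfkb2, Nfkbib and Nfkbie 2 each, and Rel, Rela, Relb and Nfkbid 1 each.

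RNA was hybridised to Affymetrix arrays, 3 for each group and 18 in all. The cells came from C57BL/6 mice aged 9 to 15 weeks, were purified from spleen with magnetic beads, and were either stimulated for 6 h with anti-CD3/CD28 antibodies or taken fresh as resting cells. The groups were stimulated Gli2A Tg, resting Gli2A Tg, stimulated Gli2R Tg, resting Gli2R Tg, stimulated wild type (WT) and resting WT cells. The transgenes carry forms of Gli2, a transcription factor through which Hedgehog signals act: Gli2A an activating and Gli2R a repressing one. The labels used here name neither the promoter of the transgenes nor the mouse behind each replicate. P-values therefore rest on the spread among arrays, which may be in part technical. By Xist and Y-linked genes the arrays with a male pattern were 2 of 3 in stimulated Gli2R Tg, 1 of 3 in stimulated WT, 2 of 3 in resting WT and 0 in the other groups, so the arrays of those 3 groups did not all come from 1 mouse. Cells held for 6 h without antibodies were not analysed here, so a difference between stimulated and resting cells includes any effect of culture.

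NF-kB is a family of dimers built from proteins that share a Rel-homology domain. Rela, Rel and Relb encode subunits with an activation domain, while Nfkb1 and Nfkb2 encode precursors that are processed to DNA-binding subunits and whose ankyrin repeats act as inhibitors until they are removed. The classical IkB proteins, encoded by Nfkbia, Nfkbib and Nfkbie, hold dimers in the cytoplasm until the IkB kinase (IKK) marks them for degradation, a step that the T cell receptor and CD28 set off in T cells. Nfkbid and Nfkbiz encode nuclear IkB proteins, IkBNS and IkB-zeta, which bind dimers on DNA and can raise or lower transcription of their targets.

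Several of these genes are textbook targets of NF-kB themselves, so their promoters are shown with each match to the 10-base NF-kB consensus, searched on both strands, in capitals. The windows come from RefSeq on the GRCm38.p6 build and hold 300 bases, 250 before and 50 after an annotated start, written in the direction of the gene. Of the 10 members, 7 had a window in the table used, and 5 of these had a match: Nfkb2, Rel, Nfkbia, Nfkbid and Nfkbie. Rela and Nfkbib had a window without a match, and Nfkb1, Relb and Nfkbiz were not in the table. By window, 7 of the 11 member windows held a match, where 8.5% of all 32851 windows of the same length did. Nfkb2 had 3 windows, all with a match and some overlapping, and Nfkbid had 3, of which the one shown held a match. The windows shown lie at chr19:46304487-46304786 (+) for Nfkb2, chr11:23770920-23771219 (-) for Rel, chr12:55492598-55492897 (-) for Nfkbia, chr7:30422156-30422455 (+) for Nfkbid and chr17:45555450-45555749 (+) for Nfkbie.
Nfkb2: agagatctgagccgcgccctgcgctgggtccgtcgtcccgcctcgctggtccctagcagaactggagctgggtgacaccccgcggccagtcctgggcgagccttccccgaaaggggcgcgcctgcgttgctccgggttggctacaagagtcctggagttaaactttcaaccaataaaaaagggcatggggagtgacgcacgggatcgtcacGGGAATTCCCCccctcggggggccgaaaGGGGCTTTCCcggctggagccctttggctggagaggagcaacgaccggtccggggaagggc
Rel: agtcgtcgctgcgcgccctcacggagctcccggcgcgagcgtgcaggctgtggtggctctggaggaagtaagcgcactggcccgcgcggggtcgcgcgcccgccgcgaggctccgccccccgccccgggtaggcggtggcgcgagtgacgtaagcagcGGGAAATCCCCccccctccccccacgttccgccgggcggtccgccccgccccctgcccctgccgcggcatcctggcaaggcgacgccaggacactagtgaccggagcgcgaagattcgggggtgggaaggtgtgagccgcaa
Nfkbia: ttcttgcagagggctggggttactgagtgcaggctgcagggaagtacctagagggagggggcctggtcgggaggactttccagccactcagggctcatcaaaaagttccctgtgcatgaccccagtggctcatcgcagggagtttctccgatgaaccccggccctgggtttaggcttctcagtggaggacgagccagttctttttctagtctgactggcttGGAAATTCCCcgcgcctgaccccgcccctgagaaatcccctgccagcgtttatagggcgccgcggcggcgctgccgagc
Nfkbid: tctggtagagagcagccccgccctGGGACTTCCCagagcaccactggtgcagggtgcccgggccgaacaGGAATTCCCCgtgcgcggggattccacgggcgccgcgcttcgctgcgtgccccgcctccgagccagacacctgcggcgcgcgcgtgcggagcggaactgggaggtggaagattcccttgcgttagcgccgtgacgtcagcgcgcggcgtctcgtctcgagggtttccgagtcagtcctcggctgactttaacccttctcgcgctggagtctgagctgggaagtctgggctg
Nfkbie: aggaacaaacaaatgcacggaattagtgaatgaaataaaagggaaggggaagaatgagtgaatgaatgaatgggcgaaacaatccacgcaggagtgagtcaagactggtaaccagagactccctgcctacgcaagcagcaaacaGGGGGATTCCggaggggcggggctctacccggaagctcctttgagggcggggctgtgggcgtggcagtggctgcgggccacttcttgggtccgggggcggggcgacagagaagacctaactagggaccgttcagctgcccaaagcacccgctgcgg
In Nfkb2 the matches began 39 and 11 bases before the start, the first of them overlapping another by all but 1 base. In Rel the matches also overlapped, and the first began 92 bases before the start. The single match of Nfkbia began 29 bases before its start and that of Nfkbie 106 bases before. In Nfkbid, the member with the highest rise below, the matches began 226 and 181 bases before the start. A match is a stretch of letters and not a measured binding site.

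All levels below are log2 of the deposited intensity plus 16, after quantile normalization, and a difference of 1 on this scale is a doubling. Each gene is represented by its brightest probe set, and levels are compared only within a probe set. Median intensities of the arrays were 55.5 to 76.3 as deposited, and having 3 arrays a group limits the precision. Resting Gli2A Tg replicate 3 stood apart from the other resting arrays on the second principal component. On the next component it was stimulated Gli2A Tg replicate 2. The 3' to 5' ratio of beta-actin, a sign of RNA quality, was 2.28 to 4.3 in stimulated Gli2A Tg arrays. It was 1.74 to 1.88 in stimulated Gli2R Tg and 1.59 to 1.65 in stimulated WT arrays. All lay above the 1.21 to 1.5 of the resting arrays, and the stimulated genotypes did not overlap in this ratio. Its part in the differences with stimulation, between stimulated genotypes and in stimulation effect was not tested. Cd4, which defines the labelled cells, had mean levels of 10.20, 10.07 and 9.81 in stimulated Gli2A Tg, Gli2R Tg and WT cells, and 11.28, 11.39 and 11.10 in resting cells of the same genotypes.

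Marker genes of other cell types differed between the conditions. The 7 of 10 CD4 T cell markers measured, led by Cd3d, Cd5 and Cd3g, summed to 31390 to 38550 in stimulated and 61110 to 86230 in resting arrays. All 19 myeloid marker genes were measured, and their intensities summed to 10020 to 16520 in stimulated Gli2A Tg, 12480 to 13680 in stimulated Gli2R Tg and 13150 to 13680 in stimulated WT arrays. In resting arrays the sums were 155200 to 163900 in Gli2A Tg, 72450 to 94410 in Gli2R Tg and 96150 to 144500 in WT cells, and Ctss, Csf1r and Vcam1 are named here and in other lists as the genes with the highest mean over the 18 arrays. In each genotype 18 of the 19 were called lower after stimulation. Of all genes 22.8% were called lower in Gli2A Tg, 22.5% in Gli2R Tg and 22% in WT cells. Of the 12 B cell markers 10 were measured, led by Ighm, Ly86 and Cd22, and they summed to 8155 to 15250 in stimulated and 24330 to 42840 in resting arrays. The 7 of 11 erythroid and platelet markers measured, led by Klf1, Alas2 and Slc4a1, summed to 836.7 to 3588 in stimulated and 2729 to 45230 in resting arrays. The 8 of 9 CD8 T and NK cell markers measured, led by Nkg7, Klrd1 and Eomes, summed to 3319 to 5199 in stimulated and 6919 to 10290 in resting arrays. In such bulk samples, fewer cells of a type and less RNA per cell cannot be told apart, and the part of these cells in the stimulation differences below was not tested.

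The first question was how these genes respond to antigen receptor stimulation in each genotype. Most of the family was higher after 6 h with antibodies. In Gli2A Tg cells 6 of the 9 genes were called higher and 1 lower at an adjusted p under 0.05, in Gli2R Tg cells 7 higher and 1 lower, and in WT cells 8 higher and 1 lower. Among all 18193 genes, 42.9% were called in Gli2A Tg, 42.3% in Gli2R Tg and 41.7% in WT cells, and those called higher made up 20.2%, 19.8% and 19.7% of all genes and those called lower 22.8%, 22.5% and 22%. The groups did not overlap in 50.4%, 52.1% and 51.7% of all genes, so a lack of overlap is common background here. The median difference of the 9 genes was 1.78, 1.49 and 1.69 on the log2 scale, where the median of all genes was 0.004, 0.006 and 0. On the brightest probe sets the order was similar in all genotypes, with the largest rise in the nuclear inhibitor Nfkbid. Then came the subunits Relb, Nfkb2 and Rel with rises near each other, then Nfkbib and Nfkbie. Rela and Nfkbia moved least, and Nfkbiz fell. This order depends on the probe set: on the second Nfkb2 probe set the rise was smaller than that of Nfkbib in every genotype.

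Among the subunits, Relb, whose product pairs mainly with the processed Nfkb2 protein, was 11.43, 11.42 and 11.23 in stimulated Gli2A Tg arrays, against 9.42, 9.14 and 8.57 in resting ones. In Gli2R Tg cells it was 11.25, 11.22 and 11.29 after stimulation, against 9.50, 9.44 and 9.51 at rest. In WT cells it was 11.24, 11.43 and 11.23 after stimulation, against 9.06, 9.27 and 8.76 at rest. Every stimulated array lay above every resting array, and the stimulated levels of the genotypes overlapped. Relb rose by log2 2.31 ± 0.18 (SE) in Gli2A Tg, 1.77 ± 0.18 in Gli2R Tg and 2.27 ± 0.18 in WT cells, which in WT is 4.83-fold (adjusted p = 1.21e-07).

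Nfkb2, the gene of the precursor used in the non-canonical pathway, averaged 11.12 ± 0.17 (SD, n = 3) in stimulated and 9.16 ± 0.19 in resting Gli2A Tg cells. It averaged 11.16 ± 0.21 in stimulated and 8.98 ± 0.16 in resting Gli2R Tg cells, and 11.19 ± 0.05 in stimulated and 9.01 ± 0.13 in resting WT cells. Its rises of 1.96 ± 0.15, 2.18 ± 0.15 and 2.18 ± 0.15 (SE) in Gli2A Tg, Gli2R Tg and WT cells were all called, and no stimulated array overlapped a resting one. The second Nfkb2 probe set, 1429128_x_at, rose as well, by 1.13 in Gli2A Tg, 0.90 in Gli2R Tg and 1.27 in WT cells.

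Rel encodes c-Rel, the subunit that T cells need for full Il2 transcription. Its level was 10.02, 10.10 and 10.03 in stimulated Gli2A Tg arrays, against 8.06, 7.66 and 7.77 at rest. It was 10.39, 10.10 and 10.30 in stimulated Gli2R Tg arrays, against 8.62, 8.48 and 8.36 at rest. It was 10.23, 10.36 and 10.12 in stimulated WT arrays, against 8.28, 8.34 and 7.63 at rest. The stimulated arrays lay within a narrow band, and the resting WT arrays were spread by replicate 3, the lowest of all resting arrays. Rel rose by 2.22 ± 0.18 (SE) in Gli2A Tg, 1.77 ± 0.18 in Gli2R Tg and 2.15 ± 0.18 in WT cells, and the adjusted p was 1.05e-06 or lower in each.

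Rela encodes RelA, the most widely used activating subunit, and it changed far less. It averaged 12.10 ± 0.08 (SD, n = 3) in stimulated and 11.95 ± 0.09 in resting Gli2A Tg cells, where the arrays overlapped. It averaged 12.13 ± 0.04 in stimulated and 11.79 ± 0.03 in resting Gli2R Tg cells, and 12.18 ± 0.02 in stimulated and 11.82 ± 0.14 in resting WT cells. The difference was 0.34 ± 0.11 (SE) in Gli2R Tg cells (adjusted p = 0.018) and 0.36 ± 0.11 in WT cells (adjusted p = 0.014), both called, and 0.15 ± 0.11 in Gli2A Tg cells (adjusted p = 0.29), not called. These small values depended on single arrays: without stimulated Gli2R Tg replicate 2 the Gli2R Tg value was 0.32 (adjusted p = 0.0587), and without resting WT replicate 3 the WT value was 0.30 (adjusted p = 0.0618). With median centring Rela was at 0.47 in Gli2A Tg and 0.72 in WT cells, both called, where the median of all genes was 0.111 and 0.129. With the deposited scaling only, Rela was at 0.299 and 0.525 in the same order, both called. The median of all genes was then -0.064 and -0.069.

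**Figure D1:**
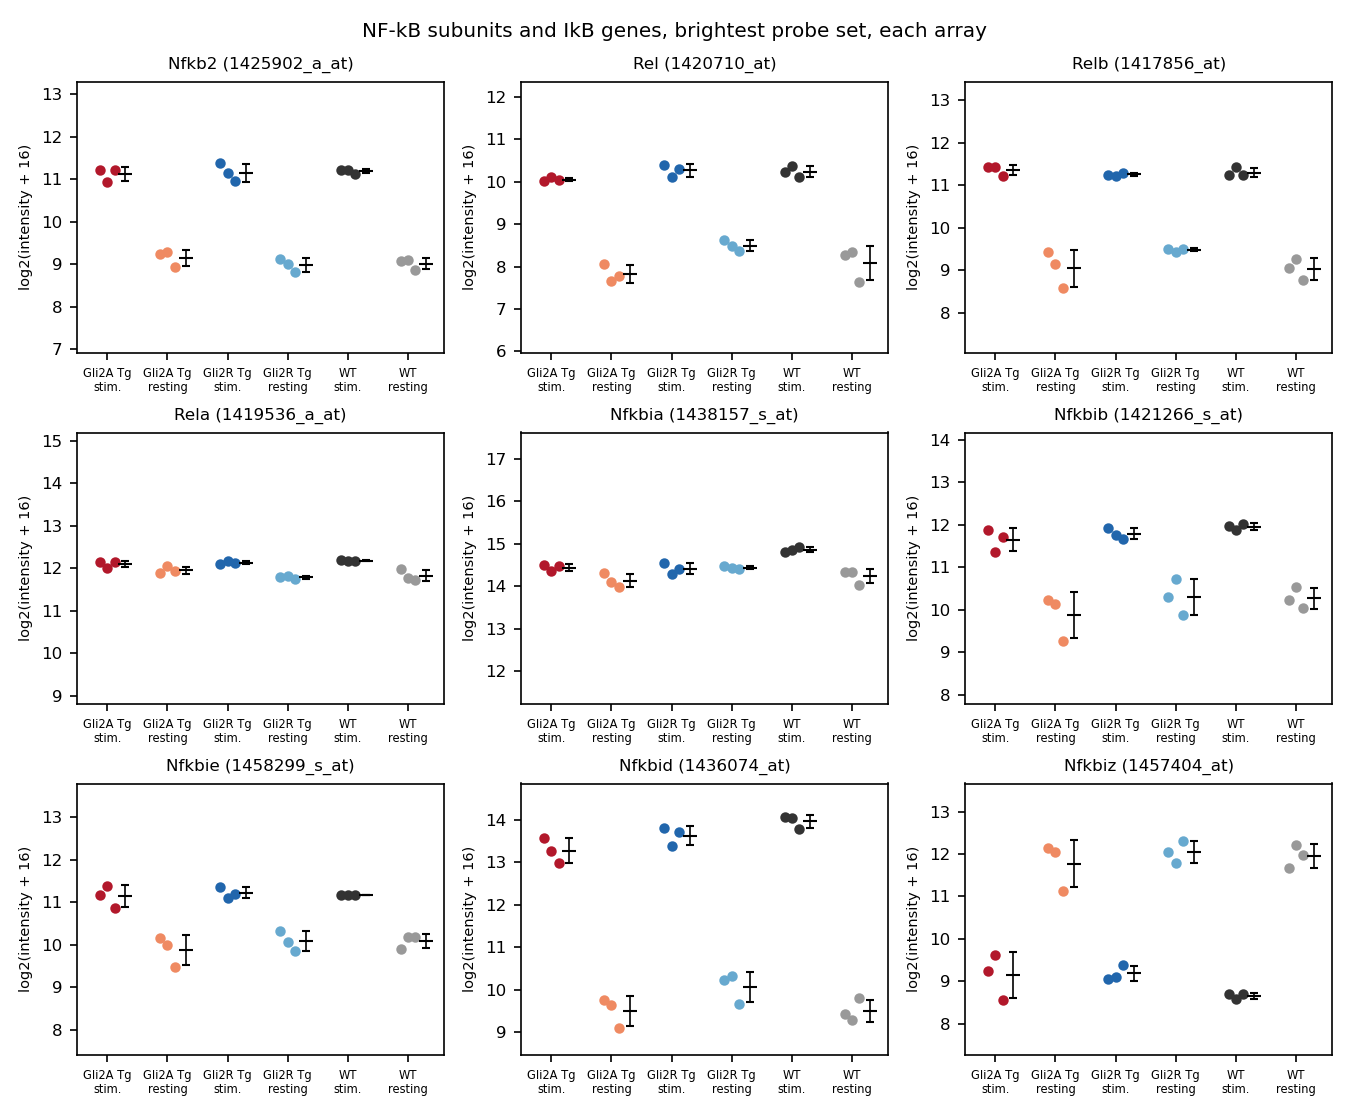
Level of the 9 measured genes on each array (y axis, log2 of intensity plus 16, each panel spanning the same number of log2 units) by group, with stimulated left of resting cells for Gli2A Tg, Gli2R Tg and WT. Points are arrays in replicate order and black marks are the mean with SD of 3 arrays. Nfkbid separates most, from 12.99 to 14.07 in stimulated and 9.09 to 10.32 in resting arrays, Rela and Nfkbia separate least, and Nfkbiz is read from the probe set that falls.

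Of the classical inhibitors, Nfkbib (IkB-beta) averaged 11.65 ± 0.27 (SD, n = 3) in stimulated and 9.87 ± 0.54 in resting Gli2A Tg cells. It averaged 11.79 ± 0.13 in stimulated and 10.30 ± 0.42 in resting Gli2R Tg cells, and 11.96 ± 0.08 in stimulated and 10.27 ± 0.25 in resting WT cells. It rose by 1.78 ± 0.26, 1.49 ± 0.26 and 1.69 ± 0.26 (SE) in Gli2A Tg, Gli2R Tg and WT cells, and the resting arrays were the more spread. A second, dim Nfkbib probe set, 1446718_at, with levels between 4.65 and 7.30, was called higher in Gli2A Tg (1.55) and WT cells (1.51) but not in Gli2R Tg cells (0.49, adjusted p = 0.404). Nfkbie (IkB-epsilon) rose by 1.27 ± 0.19, 1.14 ± 0.19 and 1.08 ± 0.19 in Gli2A Tg, Gli2R Tg and WT cells, where stimulated arrays lay between 10.87 and 11.39 and resting arrays between 9.47 and 10.31. Its second probe set, 1431843_a_at, gave 1.13, 0.95 and 1.14.

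Nfkbia encodes IkB-alpha, the inhibitor that NF-kB induces to switch itself off. On its brightest probe set, 1438157_s_at, the level was 14.49, 14.35 and 14.46 in stimulated Gli2A Tg arrays, against 14.30, 14.11 and 13.99 at rest. It was 14.55, 14.27 and 14.41 in stimulated Gli2R Tg arrays, against 14.48, 14.42 and 14.40 at rest. It was 14.81, 14.85 and 14.91 in stimulated WT arrays, against 14.34, 14.33 and 14.04 at rest. The WT groups did not overlap, the Gli2A Tg groups parted by a narrow gap, and the Gli2R Tg groups overlapped. Nfkbia rose in WT cells, by 0.62 ± 0.13 (SE, adjusted p = 0.000899). The difference was 0.30 ± 0.13 in Gli2A Tg cells (adjusted p = 0.0672) and -0.02 ± 0.13 in Gli2R Tg cells (adjusted p = 0.918), neither of them called, though without resting Gli2A Tg replicate 1 the Gli2A Tg value was 0.39 (adjusted p = 0.0335).

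The 5 Nfkbia probe sets did not give 1 answer. In WT cells 1420088_at rose as well (0.70 ± 0.18), while 1448306_at was at 0.41 ± 0.18 (adjusted p = 0.0905), 1449731_s_at at 0.36 ± 0.35 and 1420089_at at -0.44 ± 0.33. In Gli2A Tg cells the called one was 1448306_at, which rose by 0.75 ± 0.18. In Gli2R Tg cells the called one was 1420089_at, which fell by 0.93 ± 0.33 (adjusted p = 0.0331). Its resting Gli2R Tg arrays were at 10.75, 10.75 and 9.17, so replicate 3 lay within the range of the stimulated ones at 9.38, 9.13 and 9.37. This call was kept in 22 of 28 alternative settings and was lost without resting Gli2R Tg replicate 1 or 2 or any 1 of the stimulated Gli2R Tg arrays. With the mean of all 5 probe sets, Nfkbia was at 0.33 in WT cells (adjusted p = 0.205).

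Nfkbid, the gene of the nuclear inhibitor IkBNS, had the largest rise of the family. It was 13.57, 13.26 and 12.99 in stimulated Gli2A Tg arrays, against 9.75, 9.64 and 9.09 at rest. It was 13.80, 13.37 and 13.71 in stimulated Gli2R Tg arrays, against 10.21, 10.32 and 9.65 at rest. It was 14.07, 14.04 and 13.78 in stimulated WT arrays, against 9.42, 9.28 and 9.79 at rest. The gap between conditions was far wider than the spread within any group. The rise was 3.78 ± 0.23 (SE) in Gli2A Tg cells, 3.57 ± 0.23 in Gli2R Tg cells and 4.47 ± 0.23 in WT cells, which is 13.8-fold, 11.9-fold and 22.1-fold (adjusted p = 8.16e-09, 1.38e-08 and 3.02e-09). In all 30 alternative settings the rise was called in each genotype, with values in WT between 4.36 and 4.61.

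Nfkbiz, the gene of IkB-zeta, gave opposite answers on its probe sets. The brightest, 1457404_at, was 9.25, 9.62 and 8.56 in stimulated Gli2A Tg arrays, against 12.14, 12.05 and 11.13 at rest. It was 9.06, 9.11 and 9.39 in stimulated Gli2R Tg arrays, against 12.06, 11.79 and 12.29 at rest. It was 8.69, 8.58 and 8.70 in stimulated WT arrays, against 11.67, 12.22 and 11.98 at rest. On this probe set Nfkbiz was lower after stimulation in every genotype, with differences of -2.63 ± 0.28 (SE) in Gli2A Tg, -2.86 ± 0.28 in Gli2R Tg and -3.30 ± 0.28 in WT cells (adjusted p = 1.93e-06, 8.41e-07 and 2.07e-07).

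The other probe sets, 1448728_a_at and 1417483_at, rose in Gli2A Tg and WT cells, and the first also in Gli2R Tg cells. On 1448728_a_at the level was 8.95, 9.13 and 9.03 in stimulated Gli2A Tg arrays, against 6.94, 7.09 and 6.72 at rest. It was 8.84, 8.71 and 9.19 in stimulated Gli2R Tg arrays, against 8.42, 8.65 and 8.17 at rest. It was 9.62, 9.34 and 9.79 in stimulated WT arrays, against 8.24, 8.05 and 8.06 at rest. Here the stimulated arrays lay above the resting ones in each genotype, by a wide margin in Gli2A Tg and WT cells and a narrow one in Gli2R Tg cells. Fitted over all 34945 probe sets with 1 symbol, the rise was 2.12 ± 0.18 in Gli2A Tg cells (adjusted p = 1.59e-07), 0.50 ± 0.18 in Gli2R Tg cells (adjusted p = 0.0338) and 1.47 ± 0.18 in WT cells (adjusted p = 7.02e-06). The Gli2R Tg rise was called in 19 of 28 alternative settings, and was lost without replicate 1 or 3 of either Gli2R Tg group.

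On 1417483_at Nfkbiz rose by 1.77 ± 0.49 in Gli2A Tg cells (adjusted p = 0.00826) and by 1.34 ± 0.49 in WT cells (adjusted p = 0.0397), and the difference was 0.25 ± 0.49 in Gli2R Tg cells (adjusted p = 0.734). The WT rise was called in 19 of 28 alternative settings, and was lost without resting WT replicate 2 or 3 or any 1 of the stimulated WT arrays. Resting Gli2R Tg arrays were at 10.20, 9.97 and 7.86 on it, so replicate 3 stood far below the other two. The annotation gives 1448728_a_at and 1417483_at the same sequence record and 1457404_at another, and the transcripts that each detects were not analysed here. With the mean of the 3 probe sets Nfkbiz was at 0.42 in Gli2A Tg cells (adjusted p = 0.161), -0.70 in Gli2R Tg cells (adjusted p = 0.021, called) and -0.17 in WT cells (adjusted p = 0.614). The averaged value was therefore a called fall in Gli2R Tg cells and not called in the other genotypes. The myeloid markers fell with stimulation as 1457404_at did. At rest their summed intensities were highest in Gli2A Tg arrays. Their mean log2 levels by array overlapped between resting Gli2A Tg (11.767 to 11.936) and WT cells (11.29 to 11.996). In resting Gli2R Tg arrays these means were 10.729 to 11.066. At rest 1457404_at averaged 11.77 ± 0.56 (SD, n = 3) in Gli2A Tg, 12.05 ± 0.25 in Gli2R Tg and 11.96 ± 0.28 in WT arrays. None of these genotype differences was called. The part of myeloid cells in the fall of 1457404_at was not tested.

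**Figure D2:**
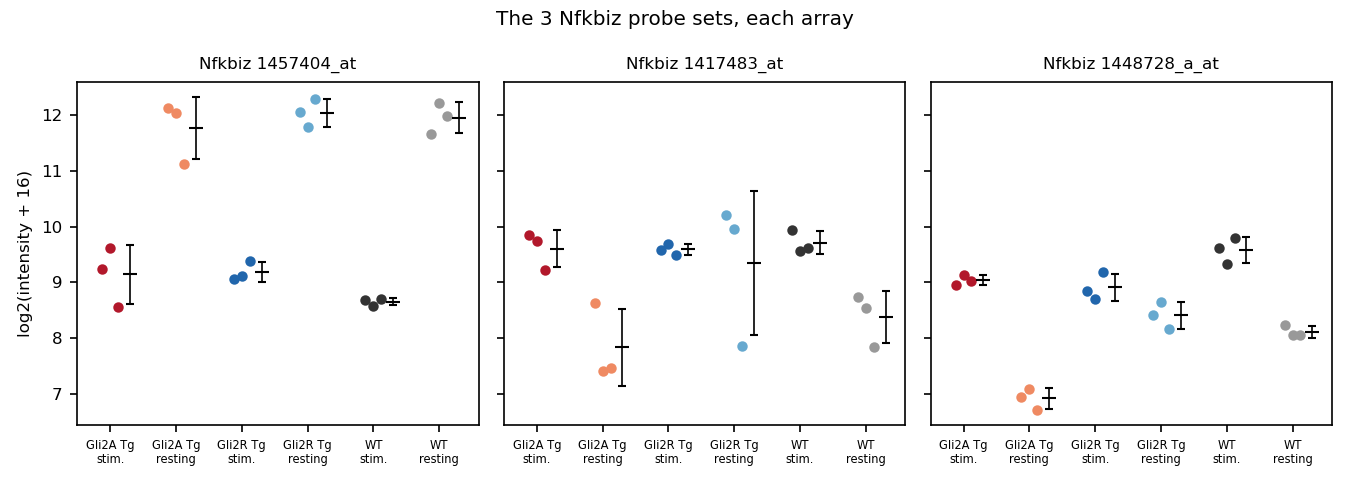
Level of the 3 Nfkbiz probe sets on each array (y axis, log2 of intensity plus 16, shared) by group, with stimulated left of resting cells; points are arrays and black marks the mean with SD of 3 arrays. 1457404_at is lower in all stimulated arrays, the other probe sets are not, and on 1448728_a_at the resting Gli2A Tg arrays, at 6.72 to 7.09, lie below all other arrays.

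Taken by probe set, 12 of the 18 were called higher and 1 lower in Gli2A Tg cells, 10 higher and 2 lower in Gli2R Tg cells, and 14 higher and 1 lower in WT cells. Among all probe sets with 1 symbol 40.4%, 39.7% and 39.3% were called. The genes with a single probe set, Rel, Rela, Relb and Nfkbid, allow no such check. Of the others, Nfkb2, Nfkbib and Nfkbie gave 1 direction on both probe sets in every genotype, with 1 of these values, that of Nfkbib 1446718_at in Gli2R Tg cells, not called.

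**Figure D3:**
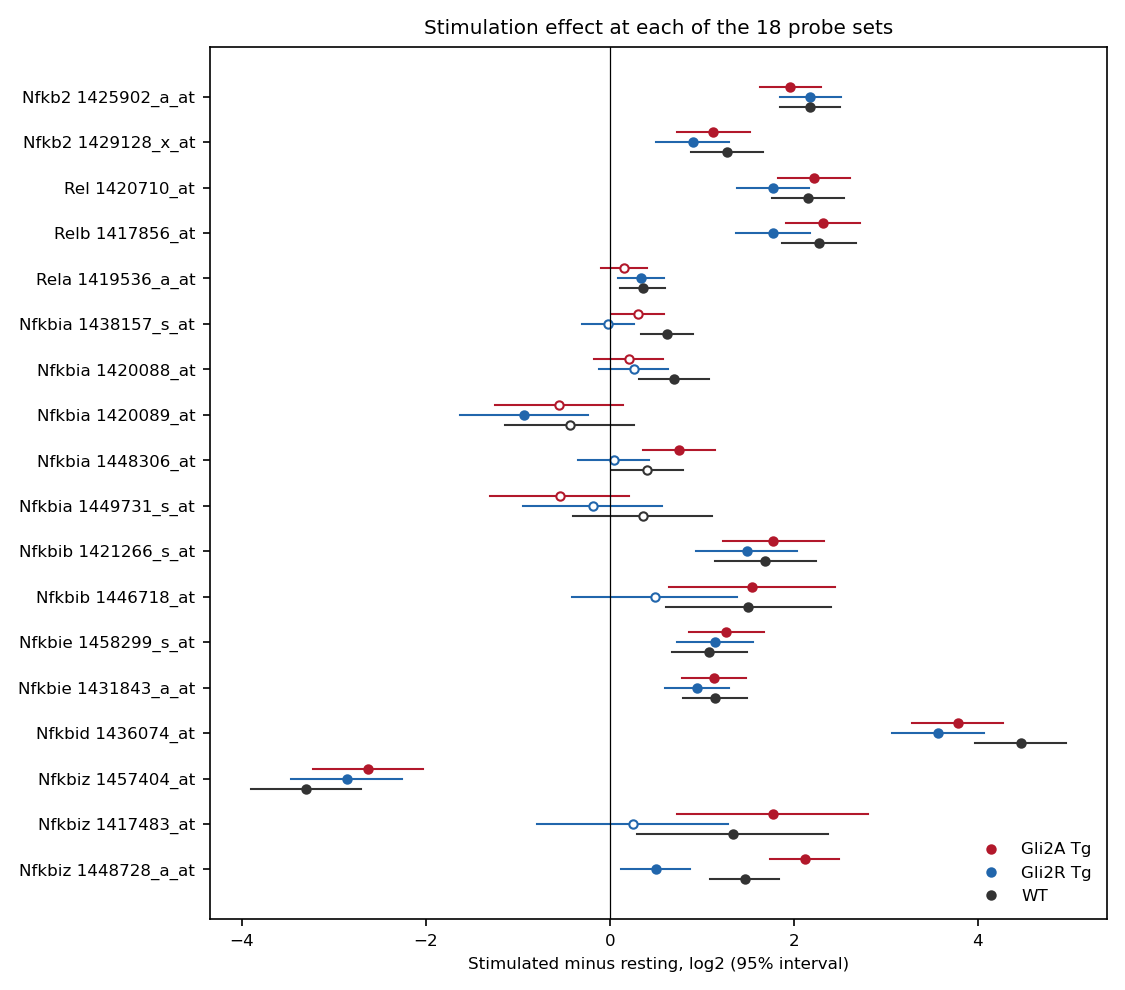
Stimulated minus resting level of each of the 18 probe sets (x axis, log2 with 95% interval) in Gli2A Tg, Gli2R Tg and WT cells; filled points were called at an adjusted p under 0.05 and open points were not. The 3 Nfkbiz rows lie on both sides of 0, and the 5 Nfkbia rows scatter around it.

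The next question was whether the Gli2 transgenes changed the levels of these genes. Read from the brightest probe set, 0 of the 9 genes were called by limma in any of the 6 comparisons between genotypes. The share of all genes called was 0.55% in resting and 0.137% in stimulated Gli2A Tg against WT cells, 0% and 0.044% in Gli2R Tg against WT cells, and 2.4% and 0.231% in Gli2A Tg against Gli2R Tg cells. At an unadjusted p under 0.05, 0 members differed in resting Gli2A Tg against WT cells and 2 in stimulated ones (Nfkbia and Nfkbid), where 10.1% and 11.4% of all genes did. At that level 3 members differed in resting Gli2R Tg against WT cells (Rel, Relb and Nfkbid) and 1 in stimulated ones (Nfkbia), where 10.3% and 9.21% of all genes did. In Gli2A Tg against Gli2R Tg cells it was 4 at rest (Rel, Relb, Nfkbia and Nfkbid) and 0 after stimulation, where 17% and 9.16% of all genes did. The comparisons with WT share the WT arrays, and so do not repeat each other.

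Among these uncalled differences, Rel at rest differed by -0.66 ± 0.18 log2 units (SE) between Gli2A Tg and Gli2R Tg cells (adjusted p = 0.0672, 95% interval -1.04 to -0.28), and the arrays did not overlap. It passed the threshold in 6 of 30 alternative settings, among them the fit without resting WT replicate 3 (adjusted p = 0.0256) and the fit without resting Gli2A Tg replicate 1 (-0.78, adjusted p = 0.0458). Nfkbid after stimulation differed by -0.69 ± 0.23 between Gli2A Tg and WT cells (adjusted p = 0.255) and by -0.34 ± 0.23 between Gli2R Tg and WT cells (adjusted p = 0.718). On its brightest probe set, Nfkbia after stimulation differed by -0.42 ± 0.13 between Gli2A Tg and WT cells (adjusted p = 0.201). Between Gli2R Tg and WT cells it differed by -0.45 ± 0.13 (adjusted p = 0.268). On this probe set and 1420088_at, all stimulated arrays of both transgenic lines lay below all 3 stimulated WT arrays. On 1448306_at the stimulated means ran the other way, at 13.31 in Gli2A Tg, 13.21 in Gli2R Tg and 13.17 in WT cells. In the same order they were 12.06, 12.63 and 12.90 on 1449731_s_at and 9.12, 9.29 and 9.29 on 1420089_at. The beta-actin ratio given above also differed between the stimulated genotypes, and its part in these values was not tested. Groups without overlap were common among all genes in these comparisons, at 18% in stimulated and 15.3% in resting Gli2A Tg against WT cells, 17.6% and 17.8% in Gli2R Tg against WT cells, and 16.6% and 20.3% in Gli2A Tg against Gli2R Tg cells. On the brightest probe sets of Nfkb2 and Rela the intervals of all 6 genotype differences lay within -0.39 and 0.50. On Nfkb2 1429128_x_at they reached -0.73, in stimulated Gli2A Tg and Gli2R Tg against WT cells, and none of its differences was called. Intervals of the other members reached further. For Nfkbid the interval was -1.18 to -0.20 in stimulated Gli2A Tg against WT cells and 0.07 to 1.05 in resting Gli2R Tg against WT cells.

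The differences in stimulation effect gave 0 of 9 called genes in each of the 3 comparisons of genotypes, where 0.011%, 0% and 0.11% of all genes were called for Gli2A Tg against WT, Gli2R Tg against WT and Gli2A Tg against Gli2R Tg. At an unadjusted p under 0.05 the counts were 0, 2 (Nfkbia and Nfkbid) and 0, where 10.1%, 8.65% and 10.6% of all genes passed. Against WT, the effect on Nfkbid differed by -0.69 ± 0.32 in Gli2A Tg cells (adjusted p = 0.497) and by -0.90 ± 0.32 in Gli2R Tg cells (adjusted p = 0.44). That on Nfkbia differed by -0.64 ± 0.18 in Gli2R Tg cells (adjusted p = 0.296). None of these was called, although on its brightest probe set the rise of Nfkbia was called in WT cells alone. On 1448306_at the rise was called in Gli2A Tg cells and not in WT cells.

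When every probe set was tested, 1 of the 18 separated the genotypes, the Nfkbiz probe set 1448728_a_at. At rest its Gli2A Tg arrays, at 6.94, 7.09 and 6.72, lay below all 3 Gli2R Tg arrays, at 8.42, 8.65 and 8.17, and all 3 WT arrays, at 8.24, 8.05 and 8.06. It was lower in Gli2A Tg than in Gli2R Tg cells, with a difference of -1.50 ± 0.18 log2 units (SE, adjusted p = 0.000556), and lower than in WT cells, with a difference of -1.20 ± 0.18 (adjusted p = 0.0056). Gli2R Tg and WT cells differed by 0.30 ± 0.18 (adjusted p = 0.676). Among all probe sets, 1.78% were called between resting Gli2A Tg and Gli2R Tg cells and 0.381% between resting Gli2A Tg and WT cells. In the comparisons without a called member probe set the share was 0.02% in resting and 0.109% in stimulated Gli2R Tg against WT cells, 0.14% in stimulated Gli2A Tg against WT cells, 0.129% in stimulated Gli2A Tg against Gli2R Tg cells, and 0.0172% for the stimulation effect of each transgenic line against WT. Both calls held in 27 of 28 alternative settings, and without the 4 groups that were not compared the adjusted p was 0.0632 against Gli2R Tg and 0.171 against WT.

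After stimulation no genotype difference of this probe set was called. The stimulated Gli2A Tg arrays, at 8.95, 9.13 and 9.03, overlapped those of Gli2R Tg cells, at 8.84, 8.71 and 9.19, and the difference was 0.12 ± 0.18 (adjusted p = 0.919). Both lines lay below the stimulated WT arrays, with differences of -0.55 ± 0.18 for Gli2A Tg (adjusted p = 0.232) and -0.67 ± 0.18 for Gli2R Tg cells (adjusted p = 0.212). The stimulation effect was larger in Gli2A Tg than in Gli2R Tg cells by 1.62 ± 0.25 (adjusted p = 0.0225), in a comparison where 0.1% of all probe sets were called. That call was kept in 18 of 28 alternative settings. It was lost with the replicate number as a block (adjusted p = 0.0505), with sex as a covariate (0.0705) and with the arrays of the compared groups alone (0.0853). It was also lost without resting Gli2A Tg replicate 3 (1.52, adjusted p = 0.053), without resting Gli2R Tg replicate 1 (1.62, 0.0615) or 2 (1.50, 0.0763), without stimulated Gli2A Tg replicate 2 (1.57, 0.0776), and without stimulated Gli2R Tg replicate 1 (1.59, 0.081) or 2 (1.52, 0.0575). The other Nfkbiz probe sets did not pass the threshold at rest. Between Gli2A Tg and Gli2R Tg cells 1417483_at was at -1.51 ± 0.49 (adjusted p = 0.13) and 1457404_at at -0.28 ± 0.28 (adjusted p = 0.712).

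**Figure D4:**
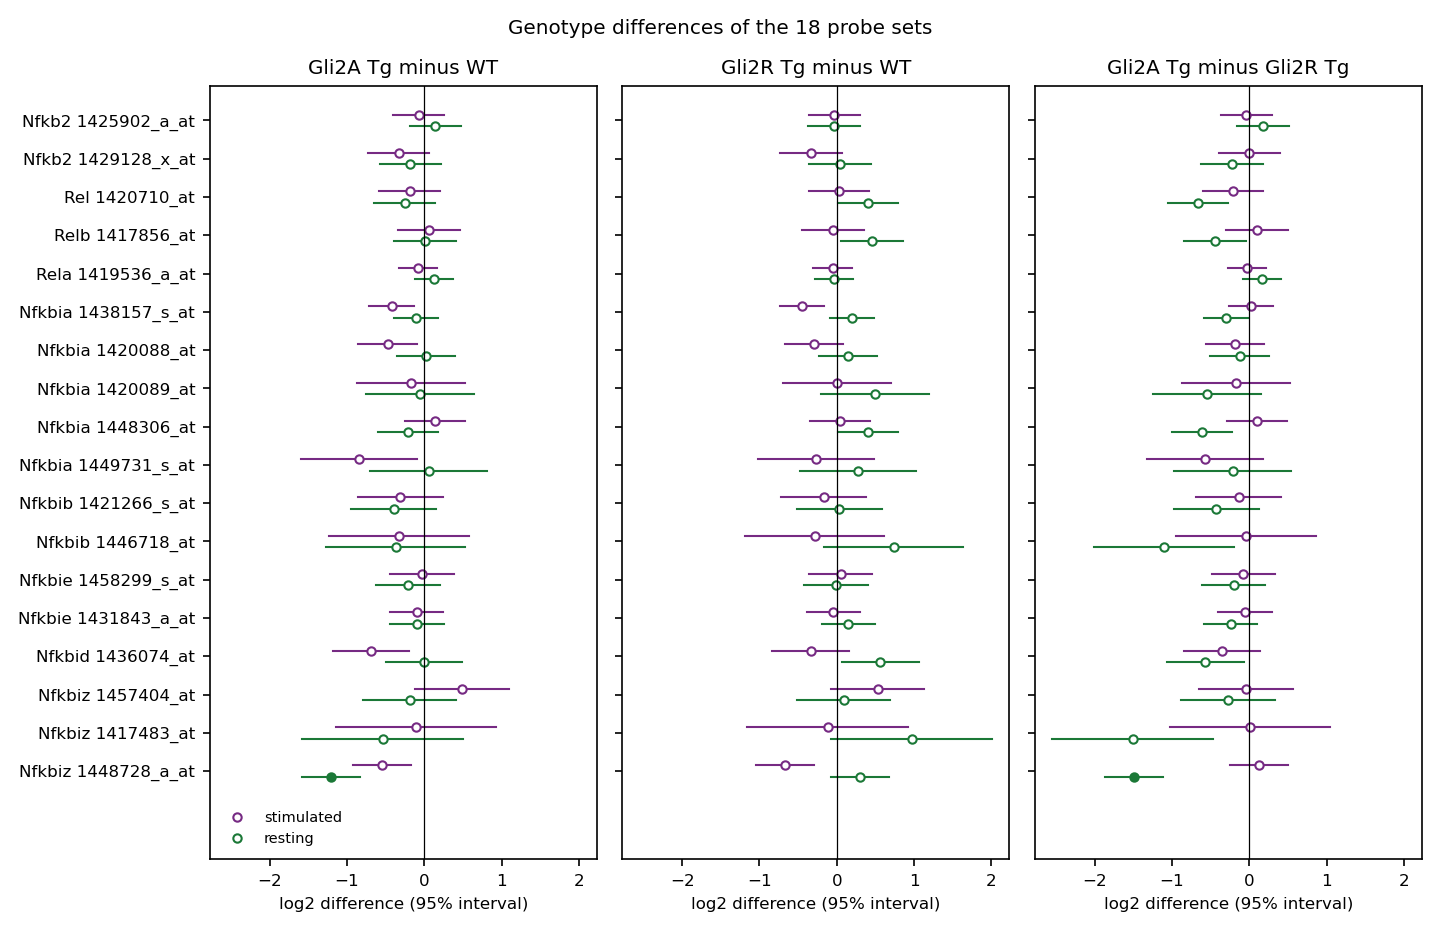
Difference between genotypes at each of the 18 probe sets (x axis, log2 with 95% interval) for Gli2A Tg minus WT, Gli2R Tg minus WT and Gli2A Tg minus Gli2R Tg, in stimulated and resting cells; filled points were called at an adjusted p under 0.05 and open points were not. The only filled points are the resting values of Nfkbiz 1448728_a_at at -1.20 and -1.50.

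Resting arrays also differed in immediate early and heat shock genes. This set of 8 genes was chosen after the values were seen. Hspa1b, a heat shock gene, was at 9.92, 9.40 and 8.74 in resting Gli2A Tg arrays, against 13.84, 14.23 and 13.77 in Gli2R Tg and 14.02, 13.91 and 12.31 in WT arrays. The immediate early gene Jun was at 11.28, 9.19 and 9.32 in resting Gli2A Tg arrays, against 13.64, 13.97 and 12.70 in Gli2R Tg and 13.47, 12.49 and 10.41 in WT arrays. Between resting Gli2A Tg and Gli2R Tg cells 7 of the 8 were called lower, from Hspa1b at -4.59 ± 0.44 (SE) to Ier2 at -1.59 ± 0.27, with Egr1 at -0.54 ± 0.28 (adjusted p = 0.342). Against WT cells 2 of the 8 were called, Hspa1b (-4.06 ± 0.44) and Hspa1a (-3.04 ± 0.55). Of all genes 2.4% were called between resting Gli2A Tg and Gli2R Tg cells and 0.55% between resting Gli2A Tg and WT cells. Because the set was chosen on its values, its counts cannot be tested against these shares. By array, resting Gli2A Tg lay below all resting Gli2R Tg and WT arrays in Hspa1a, Hspa1b, Junb and Ier2, as on Nfkbiz 1448728_a_at. Resting Gli2A Tg and WT arrays overlapped in Fos, Jun, Dusp1 and Egr1. Groups without overlap made up 15.3% of all genes against WT and 20.3% against Gli2R Tg cells. Markers of other cells differed as well: 4 of 19 myeloid and 2 of 7 erythroid and platelet markers were called higher in resting Gli2A Tg than in Gli2R Tg cells. Of the 7 CD4 T cell markers 1 was called lower, Cd5 at -0.85 ± 0.16 (adjusted p = 0.011). Of the 10 B cell and the 8 CD8 T and NK cell markers measured, 0 were called. Between resting Gli2A Tg and WT cells 0 markers were called in any of these lists. The part of the early, heat shock and marker genes in the Nfkbiz difference was not tested.

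The genes that switch NF-kB on and off were called in both directions. Of 22 listed genes of IKK and the steps above it 18 were measured, and with stimulation 5 were called higher and 3 lower in Gli2A Tg cells, 5 higher and 6 lower in Gli2R Tg cells, and 5 higher and 6 lower in WT cells. These are 44.4%, 61.1% and 61.1% of those measured, where 42.9%, 42.3% and 41.7% of all genes were called. Bcl10, a link from the T cell receptor to IKK, rose by 1.02 ± 0.15 (SE) in Gli2A Tg, 0.43 ± 0.15 in Gli2R Tg and 0.84 ± 0.15 in WT cells. Birc3, a ubiquitin ligase on receptor complexes, rose by 0.93 ± 0.24, 1.47 ± 0.24 and 1.39 ± 0.24 in the same order, and the adaptor Traf2 by 0.77 ± 0.18, 0.85 ± 0.18 and 0.88 ± 0.18. The kinase gene Ikbke fell, with differences of -2.07 ± 0.26, -2.14 ± 0.26 and -1.60 ± 0.26, and so did the adaptor gene Traf5 (-1.17 ± 0.18, -1.85 ± 0.18 and -1.15 ± 0.18). Traf1, another adaptor, fell in Gli2R Tg (-0.94 ± 0.21) and WT cells (-0.84 ± 0.21) and was at -0.27 ± 0.21 in Gli2A Tg cells (adjusted p = 0.346).

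All 15 listed negative regulators were measured. In Gli2A Tg, Gli2R Tg and WT cells 5, 4 and 7 were called higher and 3, 3 and 1 lower. This is 53.3%, 46.7% and 53.3% of them, where 42.9%, 42.3% and 41.7% of all genes were called. Tnip2, a partner of the A20 protein, rose by 2.36 ± 0.27 (SE) in Gli2A Tg, 1.75 ± 0.27 in Gli2R Tg and 2.15 ± 0.27 in WT cells. Tnfaip3, the gene of A20 itself and a feedback target of NF-kB, rose by 1.92 ± 0.39 in Gli2A Tg and 1.71 ± 0.39 in WT cells and was at 0.82 ± 0.39 in Gli2R Tg cells (adjusted p = 0.106). Commd1 rose by 1.33 ± 0.15, 1.46 ± 0.15 and 1.17 ± 0.15 in the same order and Otulin, a deubiquitinase gene, by 1.42 ± 0.15, 0.65 ± 0.15 and 0.97 ± 0.15. Otud7b rose in WT cells, by 0.77 ± 0.21, while Gli2A Tg cells were at 0.30 ± 0.21 and Gli2R Tg cells at 0.27 ± 0.21, neither called. Pdlim2, which promotes the degradation of RelA, fell, with differences of -1.93 ± 0.21, -2.30 ± 0.21 and -2.09 ± 0.21 in Gli2A Tg, Gli2R Tg and WT cells.

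All 7 other listed genes with ankyrin repeats or a Rel-homology domain were measured. In Gli2A Tg, Gli2R Tg and WT cells 1, 2 and 2 of them were called higher, and 3 were called lower in each genotype. These are 57.1%, 71.4% and 71.4% of them, where 42.9%, 42.3% and 41.7% of all genes were called. Bcl3, a nuclear IkB relative, rose by 3.03 ± 0.39 (SE) in Gli2A Tg, 2.21 ± 0.39 in Gli2R Tg and 2.66 ± 0.39 in WT cells. Nfat5 rose by 0.67 ± 0.21 in Gli2R Tg and 0.92 ± 0.21 in WT cells and was at 0.52 ± 0.21 in Gli2A Tg cells (adjusted p = 0.0608). Nfatc2, a calcium-regulated factor with a Rel-homology region, fell, with differences of -1.66 ± 0.16, -1.43 ± 0.16 and -1.34 ± 0.16. Those of Nfatc3 were -0.78, -0.96 and -0.99, and those of Nfkbil1 -1.39, -1.12 and -1.09, in the same order and all called.

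Among 30 textbook targets of NF-kB 27 were measured, with medians of 1.86, 1.20 and 2.04 in Gli2A Tg, Gli2R Tg and WT cells. In the same order 19, 18 and 20 were called higher and 4, 5 and 4 lower. That is 85.2%, 85.2% and 88.9% of those measured, where 42.9%, 42.3% and 41.7% of all genes were called. Il2, the T cell growth factor, rose by 6.96 ± 0.22 (SE) in Gli2A Tg, 6.08 ± 0.22 in Gli2R Tg and 6.87 ± 0.22 in WT cells. Irf4, a transcription factor of effector T cells, rose by 5.75, 4.81 and 5.76, Gadd45b by 4.44, 3.61 and 4.17, and the chemokine gene Cxcl10 by 2.94, 3.83 and 4.56. Vcam1, an adhesion gene that is also on the myeloid marker list, fell, with differences of -4.66 ± 0.41, -5.39 ± 0.41 and -6.13 ± 0.41. Csf2, a cytokine gene, rose by 5.67 ± 0.37, 2.60 ± 0.37 and 4.71 ± 0.37, and its rise was larger in Gli2A Tg than in Gli2R Tg cells by 3.07 ± 0.53 (adjusted p = 0.0397). At rest 3 targets were called lower in Gli2A Tg than in Gli2R Tg cells, 11.1% of those measured, where 2.4% of all genes were called. They were Junb (-2.90 ± 0.49), the activation marker Cd69 (-1.62 ± 0.33) and the cytokine gene Tnf (-1.35 ± 0.30). Junb is also in the set of immediate early and heat shock genes above.

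In the order of group means, the 3 stimulated groups stood above the 3 resting ones for Nfkb2, Rel, Rela, Relb, Nfkbib, Nfkbid and Nfkbie, and below them for Nfkbiz 1457404_at. Within a condition most neighbours in that order overlapped. Exceptions were Rel, where stimulated WT lay above stimulated Gli2A Tg by 0.19 and resting Gli2R Tg above resting WT by 0.40, and Relb, where resting Gli2R Tg lay above resting Gli2A Tg by 0.44. For Nfkbia, on its brightest probe set, only stimulated WT stood apart, 0.42 above stimulated Gli2A Tg, and the next 4 steps down the order all overlapped.

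For each gene whose 6 group means spanned more than 1 log2 unit, the genes with the most similar profile were found by the root mean square difference of the centred means over the 6 groups. Nfkb2 was nearest to Nat10 (0.0507), Nol8 and Top1mt, and Rel to Bloc1s4 (0.0743), the listed regulator Tnip2 (0.0826) and Utp18. Relb was nearest to Camk2d (0.0592), Msantd2 and Nt5dc3, Nfkbib to Hilpda (0.0658), Rbm34 and Eif6, and Nfkbie to Cops8 (0.0318), Polr1a and Polr2h. Nfkbid was nearest to Tnfrsf12a (0.158), Nr4a1 and Sema7a, and Nfkbiz 1457404_at to Otulinl (0.1), Cyth4 and Rabac1. Within the family the nearest pair was Rel and Relb, at 0.131, and the farthest Nfkbid and Nfkbiz, at 3.46. Rela, with a span of 0.39, and Nfkbia, with 0.73, were left out of this search.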

How the data were processed

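The deposited table gave linear intensity values for 45101 probe sets on 18 arrays. Per the submitters' processing notes the authors used the affy package, and each deposited array had a 2% trimmed mean of 500. Per the labels' protocols, 1 ug of RNA was labelled. From these values log2(intensity + 16) was computed on the deposited intensities and quantile normalized over all probe sets.

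Probe sets with 1 symbol numbered 34945, those with several 932, those with none 9160 and controls 64. A gene was read from its brightest probe set, which gave 18193 genes. A limma 3.58.1 fit of 6 group means (R 4.3.3, lmFit and eBayes) used the 18 arrays together, in 9 comparisons of group pairs and 3 of stimulation effects. Benjamini and Hochberg adjustment ran over all genes, or over all probe sets where a probe set is named, and a result under 0.05 was called. The fit was tested on simulated data. Intervals are 95%. Members and lists were chosen with earlier results of these data known. The text names all members with all their probe sets, up to 6 called genes from each of 4 lists by the size of their difference in WT, every listed gene called between genotypes, the 3 brightest genes of each marker list, and 3 most similar genes for each member. Replicate numbers were not used as a block in the reported fit. Figures were drawn with matplotlib 3.10.9 in Python 3.11.15.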

Additional observations from a re-analysis of the deposited data

Results flagged for a closer look

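The rise of the Nfkbiz probe set 1448728_a_at with stimulation differed between the transgenic lines. It was larger in Gli2A Tg than in Gli2R Tg cells by 1.62 on the log2 scale (SE 0.25, adjusted p = 0.0225 by limma over all probe sets), since the resting levels lay apart while the stimulated ones overlapped. The call was kept in 18 of 28 alternative settings and lost, among others, with the replicate number as a block (adjusted p = 0.0505), sex as a covariate (0.0705) and the compared groups alone (0.0853). The same difference was 1.52 on 1417483_at (adjusted p = 0.49) and 0.23 on 1457404_at (adjusted p = 0.899).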

How the results depend on the processing

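The count of called genes in the stimulation comparisons was 7 to 8 in Gli2A Tg, 7 to 8 in Gli2R Tg and 8 to 9 in WT cells when each array was left out in turn. Between resting Gli2A Tg and Gli2R Tg cells 1 gene instead of 0 was called with log2(value + 64), genes above the median level, averaged probe sets, eBayes with trend and robust options, sex as a covariate or every probe set tested, and 0 to 1 when each array was left out. It was Nfkbiz with averaged probe sets (-1.09) or every probe set tested, and Rel in the others. Every probe set tested also gave 1 in resting Gli2A Tg against WT cells and 1 in the stimulation effect of Gli2A Tg against Gli2R Tg cells, both Nfkbiz. With trend and robust options 1 gene, Nfkbia (-0.42), was called in stimulated Gli2A Tg against WT cells. With averaged probe sets Nfkbiz reversed to 0.42 in stimulation of Gli2A Tg cells, which follows from averaging probe sets of opposite sign. For the other changes the cause was not tested. Same-numbered arrays of different groups correlated in their deviations from the group means at -0.058 to 0.104 (median 0.02). Arrays of other numbers correlated at -0.108 to 0.052 (median -0.009), and 12 of 18 arrays correlated best with an array of their own number. With the replicate number as a block (replicate block), the counts of called genes in stimulation were 7 in Gli2A Tg, 8 in Gli2R Tg and 9 in WT cells, and the difference in stimulation effect of Nfkbiz 1448728_a_at, 1.62, had an adjusted p of 0.0505. It had an adjusted p of 0.0853 with the arrays of the compared groups alone, 0.0705 with sex as a covariate and 0.152 without both arrays that stand apart. The number of arrays, 3 a group, and dim probe sets such as Nfkbib 1446718_at limit what can be seen.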
